A study of Mus musculus with 20 samples.

Results

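Pregnancy was compared with the non pregnant state in mice on the high fat (HF) diet, in visceral fat at the end of gestation, across all genes on the array. The arrays were chosen by their labels, 5 of HF pregnant and 5 of HF non pregnant mice, which is 10 of the 20 arrays of the series. All mice were C57BL/6J, and the study's methods describe them as females from different litters that were put on their diet weeks before mating. HF pregnant mice ate a diet with 58% fat and were pregnant at E18.5, while HF non pregnant mice ate the same diet and were not pregnant. The other 10 arrays, from control pregnant mice (5, E18.5) and control non pregnant mice (5) on a diet with 10% fat, entered the fit for its estimate of the spread and are given beside the HF groups where the diets are set side by side. E18.5 stands in the age label of all mice, also the non pregnant ones, whose own age is not given in the sources used here. Each array held RNA of 1 mouse without pooling. The labels call the tissue visceral fat, and a legend of the study names the mesenteric depot, from which visible lymph nodes were dissected.

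White fat stores fatty acids as triglyceride, made from fatty acids taken up from lipoproteins or synthesized in the adipocyte from glucose carbon. Synthesis from glucose runs through citrate and acetyl-CoA to fatty acid synthase, then to elongases and desaturases. Its genes are driven by insulin and glucose through the transcription factors SREBP and ChREBP. The sister branch from acetyl-CoA to cholesterol is driven mainly by SREBP. In late pregnancy the mother shifts from storing fat to releasing it for the fetus, under placental lactogens, prolactin, steroid hormones and reduced insulin action.

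Each value is an intensity on a linear scale, and all fold changes are log2 of HF pregnant over HF non pregnant from limma, given with the standard error (SE) and a p-value adjusted over the 19802 probe sets that reached an intensity of 100 on at least 5 of the 20 arrays. A gene is its probe set with the highest mean, which gives 10603 genes. Array medians lay between 60.69 and 64.73. Per mouse values are listed in order of replicate number, 1 to 5.

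The tissue label held for its defining markers, with Adipoq, which codes for adiponectin, at 18586, 21689.6, 19969, 20575 and 23489 in HF pregnant mice, against 18799, 23312, 20455, 22655 and 14336 in HF non pregnant mice. Mouse 5 lay at the edge of each HF group, clearly so in HF pregnant mice and less so in HF non pregnant mice. Over 6 B cell and T cell genes the mean log2 intensity was 6.71 in HF pregnant mouse 5, below the 9.03 to 9.47 of the other HF pregnant mice, and 10.5 in HF non pregnant mouse 5, above the 7.81 to 9.87 of the other HF non pregnant mice. The same pair lay farthest of the HF arrays from their group means over all probe sets, with an SD of 0.448 for HF pregnant mouse 5, where the others of its group had 0.175 to 0.204, and 0.454 for HF non pregnant mouse 5, where the others had 0.198 to 0.371. Control pregnant mice 1 and 2 had larger SDs, 0.544 and 0.527. Over the 6 measured adipocyte markers (Adipoq, Fabp4, Cidec, Lipe, Retn and Lep), the mean deviation from the mean of all arrays was -0.39, 0.11, -0.65, -0.22 and 0.31 in HF pregnant mice, against -0.04, 0.53, 0.03, 0.04 and -0.71 in HF non pregnant mice, so the fifth mice were the highest and the lowest of their groups. HF non pregnant mouse 1 was low in smooth muscle genes (-2.39, against -0.35 to 1.10 in the other HF non pregnant mice). In bulk tissue, fewer cells of a type and less RNA per cell cannot be told apart. For many results the value without the fifth mice is given beside the value with all mice. A value printed alone may also change without them. The part of lymphoid content in any result was not tested.

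Markers of other tissues near the depot were low or moderate in the HF arrays. Genes of placenta and decidua (Prl8a2, Tpbpa and Psg21) reached at most 51.1 in HF pregnant mice and 46.5 in HF non pregnant mice, and the mammary genes Csn2, Wap and Elf5 at most 37.0 in HF pregnant mice and 40.0 in HF non pregnant mice. Krt18, the remaining gene of the mammary list, lay between 136 and 173 in HF pregnant mice and between 54.8 and 173 in HF non pregnant mice. Its log2 fold change was 0.56, or 0.30 without the fifth mice. The pancreatic acinar gene Cela1 lay between 131 and 354 in HF pregnant mice and between 164 and 553 in HF non pregnant mice, while a control pregnant and a control non pregnant array reached 7665 and 7952.

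Few genes passed the test. Of the 19802 probe sets, 5 were called (0.0252%), 3 higher in HF pregnant mice (0.0151%) and 2 lower (0.0101%), and these are 4 genes (0.0377% of 10603). Gpx3 and Igfbp3 rose, and Orm1 and Mtarc1 fell. With the HF arrays fitted alone none of them passed, and the smallest adjusted p was 0.0754. At an unadjusted p under 0.05, 438 probe sets were higher (2.21%) and 485 lower (2.45%). Across genes, the 5 HF pregnant values lay all above the 5 HF non pregnant values for 74 genes (0.698%) and all below for 74 (0.698%), and the mean was higher in HF pregnant mice for 5304 genes (50.0%), with a median log2 fold change of 0.00.

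Gpx3 codes for the secreted glutathione peroxidase, a selenoprotein that reduces peroxides outside the cell. Its intensities were 5029.7, 7042, 5382, 3802 and 5858 in HF pregnant mice, against 1461, 1274, 1932, 1559 and 789 in HF non pregnant mice. The groups did not overlap, and the lowest HF pregnant mouse stood well above the highest HF non pregnant mouse. The fold was 3.95 (log2 fold change 1.98, SE 0.27, adjusted p = 0.00785). Without mouse 5 of both groups the log2 fold change was 1.75 and did not pass (adjusted p = 0.0647). Control pregnant mice averaged 1816 ± 401 and control non pregnant mice 1695 ± 693 (SD, n = 5 each), so the HF pregnant group was the one that stood out among the 4. The other 4 glutathione peroxidases measured stayed close to 0, with log2 fold changes of 0.10 for Gpx1, -0.15 for Gpx4, -0.01 for Gpx7 and 0.05 for Gpx8.

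Igfbp3 codes for a carrier of the insulin-like growth factors that holds them in plasma and between cells. Its intensities were 681, 944, 838, 733 and 1389 in HF pregnant mice, against 381, 253, 225, 179 and 366 in HF non pregnant mice. No value overlapped, and mouse 5 was the highest of the HF pregnant group. The log2 fold change was 1.72 (SE 0.27, adjusted p = 0.0247), and a second probe set gave 1.52 (SE 0.22, adjusted p = 0.0095). Igfbp3 lost its call on the first probe set without HF pregnant mouse 5 (1.56, adjusted p = 0.107). It also lost it without HF pregnant mouse 2 or 3, or HF non pregnant mouse 2, 3 or 4. There the adjusted p-values reached up to 0.105, with the same direction. The second probe set passed only narrowly without HF pregnant mouse 2 (adjusted p = 0.0498). Without HF non pregnant mouse 3 it was not called either, so Igfbp3 then had no call.

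Orm1 codes for orosomucoid, the alpha-1-acid glycoprotein, an acute phase protein that fat secretes as well as the liver. Its intensities were 249, 258, 144, 498 and 337 in HF pregnant mice, against 2499, 2975, 2253, 3127 and 995 in HF non pregnant mice. The groups were fully separate, although HF non pregnant mouse 5 was far below the rest of its group. The intensity was 8.03-fold lower in HF pregnant mice (log2 fold change -3.01, SE 0.38, adjusted p = 0.00464). Control pregnant and control non pregnant mice averaged 4972 ± 2031 and 4209 ± 1436 (SD, n = 5 each). Close copies of the gene had log2 fold changes of -0.54 (Orm2) and -0.89 (Orm3, adjusted p = 0.688, and -0.26 with intensities under 100 set to 100, since all HF pregnant values lay under it), and probes of such copies can share targets.

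Mtarc1 codes for a molybdenum enzyme of the outer mitochondrial membrane that reduces N-hydroxylated compounds. Its intensities were 39.3, 60.2, 26.1, 85.8 and 37.6 in HF pregnant mice, all under the expression threshold of 100, against 452, 812, 458, 869.5 and 193 in HF non pregnant mice. The log2 fold change was -3.42 (SE 0.48, adjusted p = 0.00785). With intensities under 100 set to 100 it was -2.29 and did not pass (adjusted p = 0.0983), and a second, dimmer probe set gave -1.67 (adjusted p = 0.575). Control pregnant and control non pregnant mice averaged 1235 ± 699 and 1488 ± 844 (SD, n = 5 each). The sister enzyme Mtarc2 had a log2 fold change of 0.23 (0.03 without the fifth mice). Over the 27 measured genes of glutathione and antioxidant enzymes, the list that holds Gpx3 and Mtarc1, 17 were higher and 10 lower, with a median of 0.09 (-0.06 and 11 higher without the fifth mice).

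**Figure D1:**
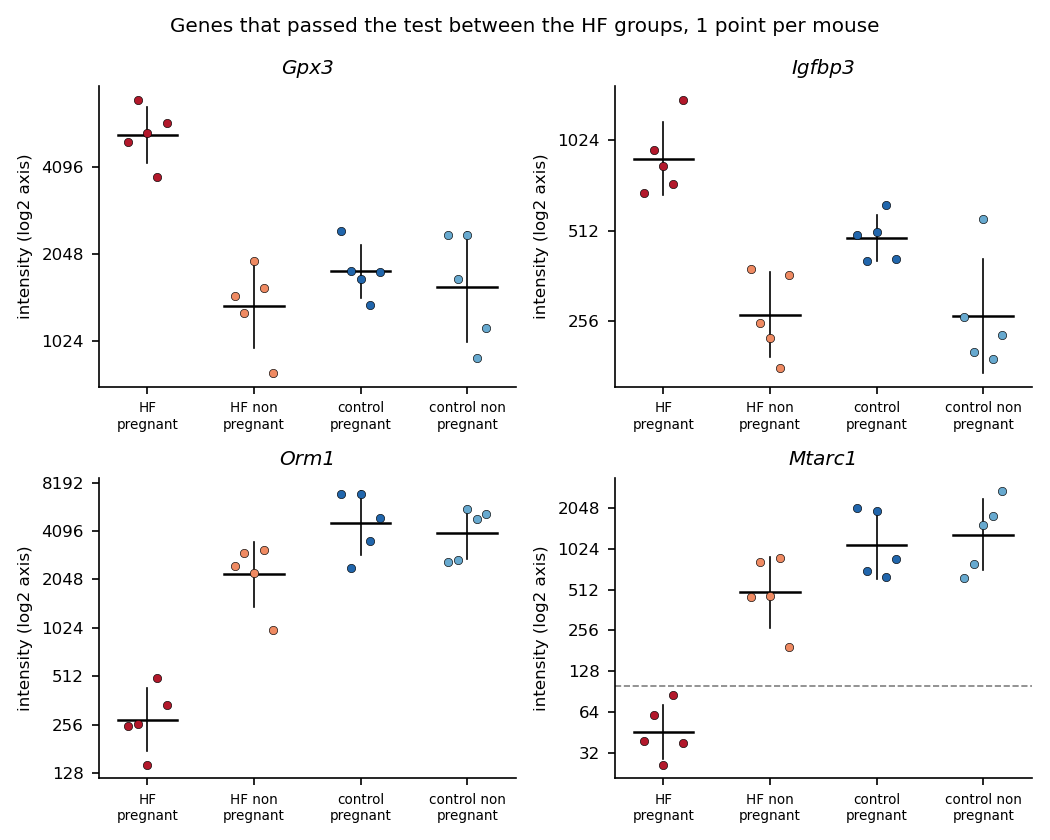
Intensity (log2 axis) of the 4 genes that passed the test, with 1 point per mouse in order of replicate number within each group, a horizontal line at the mean of the log2 values and a vertical line for 1 SD. The HF pregnant mice do not overlap the HF non pregnant mice in any panel, and the dashed line in the panel of Mtarc1 marks the expression threshold of 100.

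Promoter sequences were read from RefSeq (build GRCm38.p6) for the called genes that have an entry, and for Cish, a feedback gene of prolactin and growth hormone signalling, to show which hormone-type motifs lie at their start sites. Each runs from 250 bases before the annotated start site to 30 bases past it, 5′ to 3′ on the strand of the gene, with motif matches in capitals.
Gpx3, chr11:54902604-54902883, strand +: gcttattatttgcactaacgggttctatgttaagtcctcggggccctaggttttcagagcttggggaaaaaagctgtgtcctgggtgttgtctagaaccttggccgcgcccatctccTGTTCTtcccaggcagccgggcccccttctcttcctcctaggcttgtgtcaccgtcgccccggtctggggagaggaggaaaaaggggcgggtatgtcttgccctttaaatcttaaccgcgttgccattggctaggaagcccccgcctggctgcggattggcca
Igfbp3, chr11:7213894-7214173, strand -: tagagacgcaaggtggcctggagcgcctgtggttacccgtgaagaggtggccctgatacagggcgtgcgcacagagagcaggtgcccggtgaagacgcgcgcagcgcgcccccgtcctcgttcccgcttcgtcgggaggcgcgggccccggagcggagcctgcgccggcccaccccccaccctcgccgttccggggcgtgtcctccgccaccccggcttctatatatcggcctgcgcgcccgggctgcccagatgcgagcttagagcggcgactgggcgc
Mtarc1, chr1:184811271-184811550, strand -: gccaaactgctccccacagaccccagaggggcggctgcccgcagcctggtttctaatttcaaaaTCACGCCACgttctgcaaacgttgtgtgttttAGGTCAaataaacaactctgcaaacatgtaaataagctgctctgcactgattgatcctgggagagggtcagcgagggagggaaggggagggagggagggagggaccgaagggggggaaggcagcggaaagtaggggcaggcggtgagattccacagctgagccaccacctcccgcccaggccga
Cish, chr9:107296409-107296688, strand +: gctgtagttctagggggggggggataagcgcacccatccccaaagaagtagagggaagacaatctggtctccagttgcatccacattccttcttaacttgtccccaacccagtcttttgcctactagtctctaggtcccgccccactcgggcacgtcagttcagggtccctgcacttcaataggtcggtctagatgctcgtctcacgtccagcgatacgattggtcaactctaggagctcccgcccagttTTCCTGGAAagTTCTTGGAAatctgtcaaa
The motifs searched, on both strands of windows that reached 50 bases past the start site, were AGGTCA, a core element of several nuclear receptors, TGTTCT, a core element of steroid receptors of the glucocorticoid type, TTCNNNGAA, the core of STAT5 sites, and TCACNCCAC, the core of a sterol regulatory element. Gpx3 held TGTTCT at position -133. Mtarc1 held AGGTCA at -154 and TCACNCCAC at -186. Cish held TTCNNNGAA at positions 1 and 12, counted from the start site, and Igfbp3 held none of the 4. Of 32851 promoters of this length, 19.0% held TGTTCT, 16.3% AGGTCA, 8.30% TTCNNNGAA and 1.24% TCACNCCAC. A match is a string of letters and not a shown binding site. None of the 4 motifs overlapped another in the printed stretches.

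Just outside the threshold lay a second Mmp14 probe set (0.58, adjusted p = 0.0611), Reln (0.76, adjusted p = 0.0668), both Acss2 probe sets (-2.08, adjusted p = 0.0668, and -2.12, adjusted p = 0.113) and Gart (0.69, adjusted p = 0.108). Reln, a secreted glycoprotein of the extracellular matrix, had 465, 502, 493, 466 and 657 in HF pregnant mice, against 281, 338, 354, 349.5 and 213 in HF non pregnant mice. Its log2 fold change was 0.55 without the fifth mice. Gart, a trifunctional enzyme of purine synthesis, had 465, 575, 457, 442 and 609.6 in HF pregnant mice, against 317, 321, 294, 318 and 318 in HF non pregnant mice. Neither overlapped between the groups on these probe sets, but the other 2 probe sets of Gart both had a log2 fold change of 0.03 (SE 0.09, adjusted p = 1) and overlapped.

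**Figure D2:**
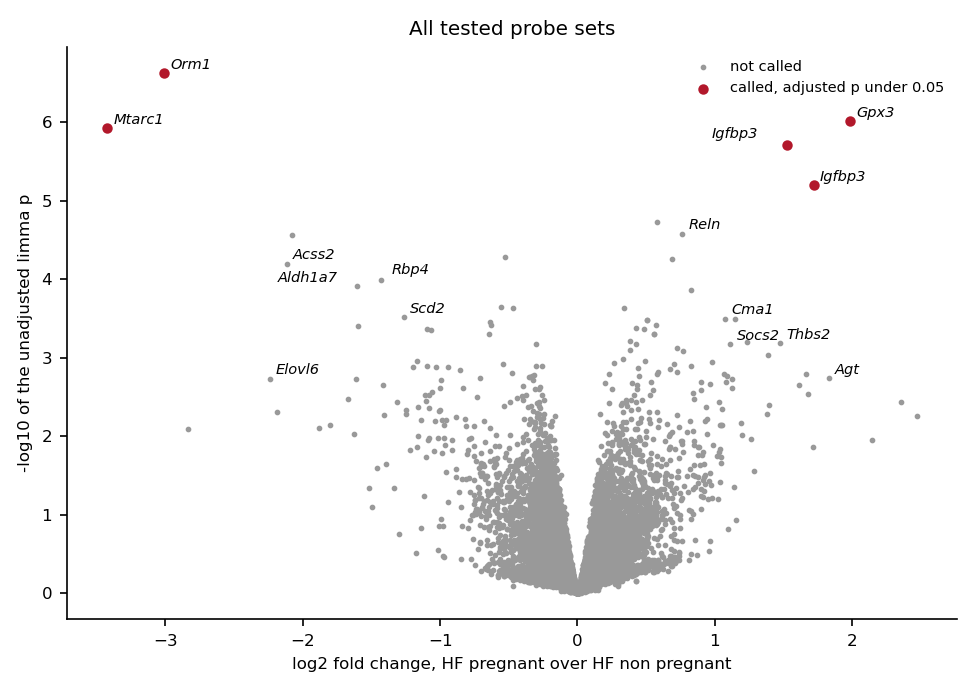
Each point is 1 of 19802 probe sets, with the log2 fold change of HF pregnant over HF non pregnant mice on the horizontal axis and -log10 of the unadjusted limma p on the vertical axis. The 5 called probe sets, in red, belong to Gpx3, Igfbp3 (2 probe sets), Orm1 and Mtarc1, and the grey points labelled by gene, such as Acss2, did not pass.

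Genes of fatty acid and cholesterol synthesis were mostly lower in HF pregnant mice, but none of them passed the test. Of 19 measured genes of fatty acid synthesis, 15 were lower and 4 higher, with a median log2 fold change of -0.39, and 4 did not overlap between the groups (Elovl6, Acss2, Scd2 and Acly), all lower, where 0.698% of all genes were separate in this direction. Without the fifth mice all 19 were lower and the median was -0.78. Of 16 measured genes of cholesterol synthesis, all 16 were lower, with a median of -0.60 (-0.67 without the fifth mice, 15 of 16 lower), and 5 did not overlap (Fdps, Idi1, Dhcr7, Mvd and Sqle), beside the same 0.698% of all genes. Over all 10603 genes the medians were 0.00 with every mouse and 0.01 without the fifth mice.

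Acss2 makes acetyl-CoA from acetate in the cytosol and nucleus. It had 503, 625, 376, 468 and 614 in HF pregnant mice, against 2008, 3713, 2124, 2932 and 1127 in HF non pregnant mice, a fold of 4.34. Elovl6, which lengthens the products of fatty acid synthase, had 464, 337, 237, 527 and 291 in HF pregnant mice, against 1294, 1868, 1179, 8163 and 574 in HF non pregnant mice (log2 fold change -2.24, SE 0.62, adjusted p = 0.472). The HF non pregnant values of Elovl6 spread widely, with mouse 4 several times above the rest and mouse 5 lowest. Scd2, a desaturase, had 2964, 2179.5, 1785, 2829 and 3279.9 in HF pregnant mice, against 5574, 10548, 6830.2, 4869 and 4334 in HF non pregnant mice (-1.26, SE 0.28, adjusted p = 0.293). Acly, which splits citrate into acetyl-CoA, had 2460.4, 2677, 1979, 2742 and 3023 in HF pregnant mice, against 4340.0, 8153, 6045, 10634 and 3602 in HF non pregnant mice (-1.25, SE 0.39, adjusted p = 0.632). Both were lower in every HF pregnant mouse than in any HF non pregnant mouse.

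Fasn, the fatty acid synthase, had 4323, 5475, 3674, 3863 and 4513 in HF pregnant mice, against 7759, 11768, 9121, 16756 and 4823 in HF non pregnant mice (-1.09, SE 0.26, adjusted p = 0.293). Me1, the malic enzyme that supplies NADPH, had 1527, 1898, 1399, 1879.8 and 2454, against 4110.0, 6403, 3845, 9066 and 1938 in HF non pregnant mice (-1.31, SE 0.39, adjusted p = 0.577). HF non pregnant mouse 5 was the only one of its group that any HF pregnant value exceeded, that of mouse 2 for Fasn and that of mouse 5 for Me1. Insig1, which holds the SREBP complex in the endoplasmic reticulum, had a log2 fold change of -1.11 (SE 0.32, adjusted p = 0.543). Scd1, the main desaturase of fat, lay between 24163 and 25737 in HF pregnant mice and between 24133 and 29509.9 in HF non pregnant mice (-0.17, SE 0.06, adjusted p = 0.815), and its other probe set gave -0.70. The transcription factors of the list, Srebf1 (0.15), Mlxipl, which codes for ChREBP (0.53, adjusted p = 1), and Nr1h3, the liver X receptor of fat (0.20), were not lower with all mice included, but without the fifth mice they were at -0.18 (Srebf1), -0.11 (Mlxipl) and -0.02 (Nr1h3).

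Without HF non pregnant mouse 5, the calls lower in HF pregnant mice went up to 7 probe sets and included both Acss2 probe sets, Fasn, Rbp4 and Aldh1a7 beside Orm1 and Mtarc1. Averaged over the fatty acid synthesis list, the deviation from the mean of all arrays was -0.94, -0.77, -1.10, -1.06 and -0.45 in HF pregnant mice, against -0.36, 0.03, -0.33, 0.51 and -1.10 in HF non pregnant mice. Mouse 5 was thus the highest of the HF pregnant group and the lowest of the HF non pregnant group, as it was for adipocyte markers.

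Among the cholesterol genes, Sc5d and Nsdhl, late enzymes of the pathway, had log2 fold changes of -1.06 (SE 0.31, adjusted p = 0.53) and -1.01 (SE 0.31, adjusted p = 0.632). Fdps, which makes farnesyl diphosphate, had 263, 221, 232, 282 and 296 in HF pregnant mice, against 413, 663, 482, 482 and 326 in HF non pregnant mice (-0.84, SE 0.37, adjusted p = 1). Sqle, the squalene epoxidase, had 259, 187, 222, 228 and 205 in HF pregnant mice, against 275, 363, 326, 350.4 and 266 in HF non pregnant mice (-0.52, SE 0.20, adjusted p = 0.895). The members nearest to 0 were Hmgcs1 (-0.02), which makes HMG-CoA, and Srebf2 (-0.06), which codes for SREBP2. The list mean was -0.62, -0.67, -0.75, -0.68 and -0.46 in HF pregnant mice, against -0.13, 0.27, -0.15, 0.13 and -0.48 in HF non pregnant mice, so the groups overlapped only through the fifth mice. TCACNCCAC was found in the promoter of 1 of the 13 cholesterol genes with an entry (Hmgcs1) and 1 of the 16 fatty acid synthesis genes with one (Mlxipl).

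**Figure D3:**
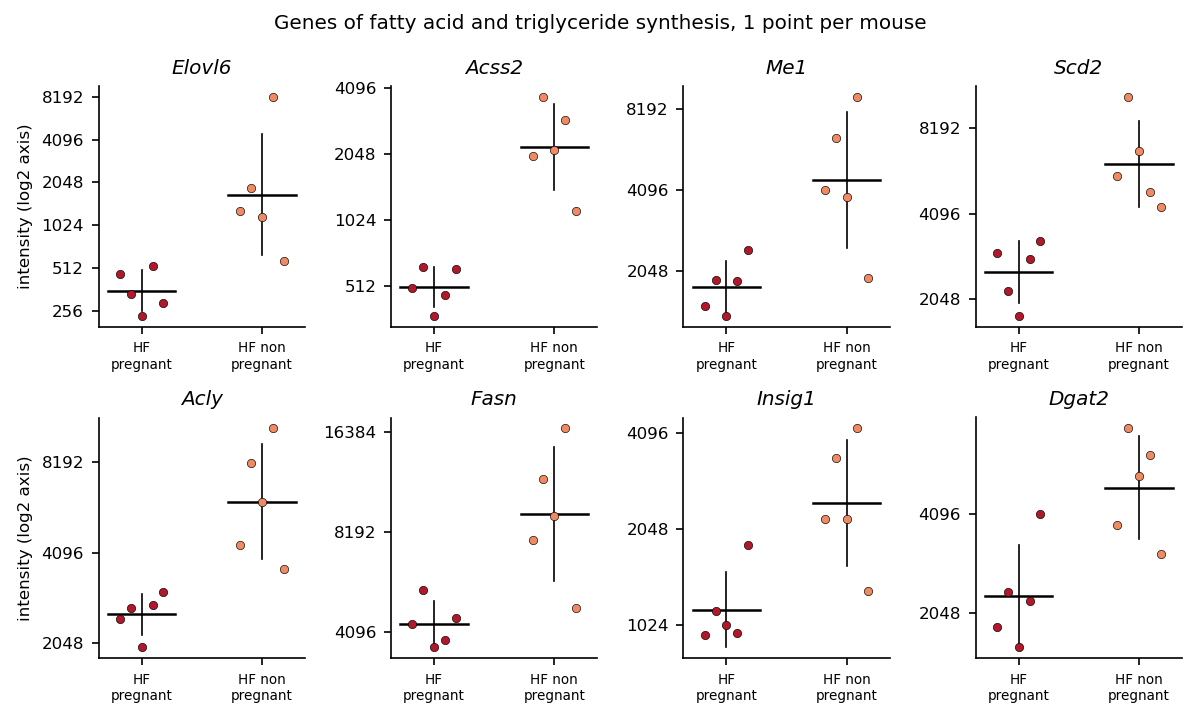
Intensity (log2 axis) of 8 genes of fatty acid and triglyceride synthesis, with 1 point per mouse in order of replicate number, a line at the mean of the log2 values and a vertical line for 1 SD. Elovl6, Acss2, Scd2 and Acly are lower in every HF pregnant mouse than in any HF non pregnant mouse, and the rightmost HF non pregnant point, mouse 5, is the lowest of its group in all 8 panels.

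Genes that store and release triglyceride had medians near 0 with all mice included, and most of them were lower without the fifth mice. Of 20 measured genes of triglyceride synthesis and storage, 10 were higher and 10 lower, with a median of -0.01 (-0.31 and 15 of 20 lower without the fifth mice). Dgat2, which adds the last fatty acid to triglyceride, had 1859, 2360.0, 1607, 2218 and 4087 in HF pregnant mice, against 3783, 7432, 5333, 6181 and 3090.2 in HF non pregnant mice. Its log2 fold change was -1.10 (SE 0.29, adjusted p = 0.458), or -1.47 without the fifth mice, the highest and the lowest of their groups. Its relatives differed, with Mogat1 at -0.81 (adjusted p = 1), Dgat1 at 0.22 and Gpat3, which starts glycerolipid synthesis, at 0.89 (SE 0.36, adjusted p = 0.95). Without the fifth mice these were -1.22, -0.22 and 0.44. The 10 lipolysis genes had a median of -0.04 (-0.40 and all 10 lower without the fifth mice), with Pnpla2, the first triglyceride lipase, at 0.30 (-0.15 without), Lipe, the hormone-sensitive lipase, at -0.06 (-0.44 without) and Npr3, which clears natriuretic peptides, at -1.80 (SE 0.60, adjusted p = 0.699). Fabp5, a fatty acid binding protein, lay between 2839.5 and 3787 in HF pregnant mice and between 4468 and 8377 in HF non pregnant mice, with no overlap (-0.94, SE 0.25, adjusted p = 0.458).

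Of 19 genes of glucose uptake, glycolysis and glycogen, 17 were lower and 2 higher, with a median of -0.18 (-0.50 without the fifth mice, 15 of 19 lower). The 2 that were higher were Gys1 (0.40, and 0.10 without the fifth mice) and Pck1 (0.53, SE 0.27, adjusted p = 1, and 0.21 without the fifth mice), which makes phosphoenolpyruvate for new glycerol. Gys2, a glycogen synthase best known from liver, had 56.1, 63.1, 38.8, 57.3 and 41.0 in HF pregnant mice, all under 100, against 165, 284, 141, 222 and 57.7 in HF non pregnant mice (-1.61, SE 0.44, adjusted p = 0.472; -0.78 with intensities under 100 set to 100). Fatty acid oxidation (12 genes, 11 higher, median 0.11) and the respiratory chain (26 genes, 19 higher, median 0.04) stayed near 0, and their medians changed sign without the fifth mice, to -0.18 and -0.08. Branched-chain amino acid breakdown did the same, with medians of 0.17 over 18 genes and -0.14 without the fifth mice. The 18 insulin signalling genes had a median of 0.08 (0.13 without the fifth mice), with Irs1, a docking protein of the insulin receptor, at 0.61 (SE 0.24, adjusted p = 0.928), which was 0.36 without HF non pregnant mouse 5 and 0.28 without mouse 5 of both groups.

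**Figure D4:**
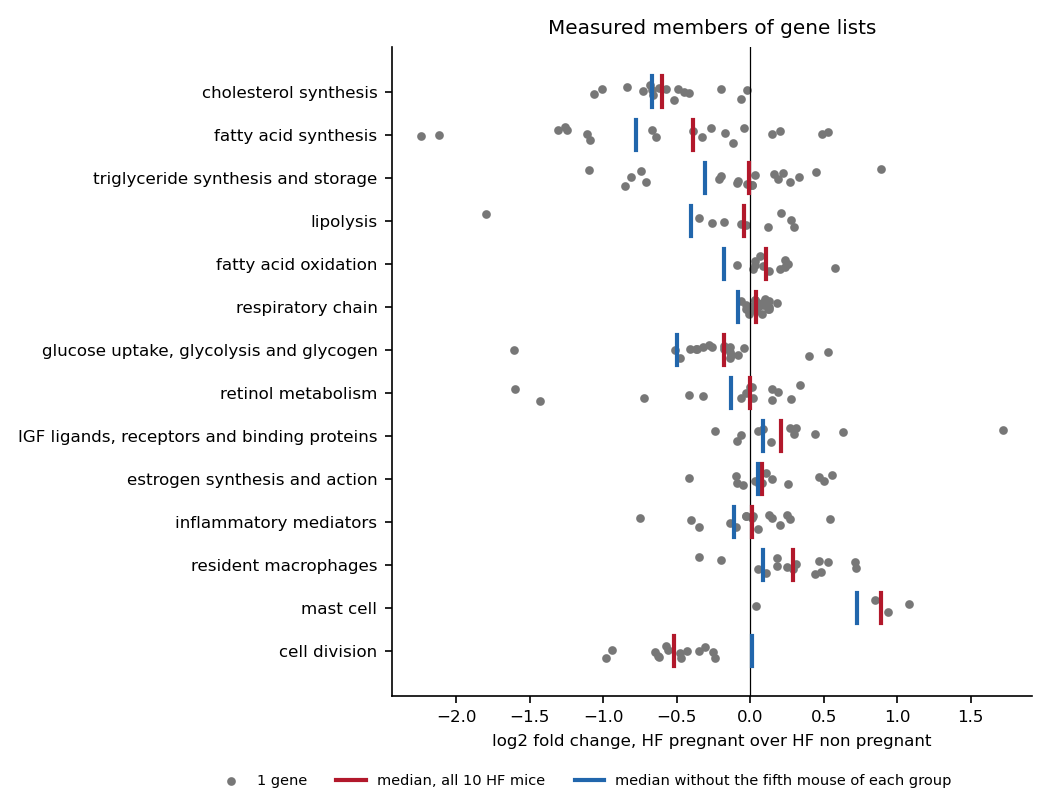
Each grey point is 1 measured gene of a list at its log2 fold change of HF pregnant over HF non pregnant mice, with the median over all 10 HF mice in red and the median without the fifth mouse of each group in blue. Cholesterol synthesis has medians of -0.60 and -0.67, whereas cell division has medians of -0.52 and 0.01.

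Retinol genes were split between a few that were lower and a majority near 0. Rbp4, the retinol carrier that fat secretes, had 1230.2, 2491, 1134, 1963 and 2235 in HF pregnant mice, against 4873, 6961, 4806, 5038 and 2607 in HF non pregnant mice (-1.43, SE 0.29, adjusted p = 0.17). Aldh1a7, a mouse aldehyde dehydrogenase next of kin to the retinal dehydrogenase Aldh1a1, had 919.6, 1318, 704, 1171 and 1009 in HF pregnant mice, against 3855, 5262, 2972, 2825 and 1533 in HF non pregnant mice (-1.60, SE 0.33, adjusted p = 0.186). Rdh11, which interconverts retinol and retinal, had 142, 125, 158, 189 and 161 in HF pregnant mice, against 216, 288, 211, 358 and 216 in HF non pregnant mice (-0.72, SE 0.40, adjusted p = 1). These 3 did not overlap between the groups, beside 0.698% of all genes. Over the 15 measured genes of the list, 7 were higher and 8 lower with a median of 0.00 (-0.13 and 11 of 15 lower without the fifth mice), and Aldh1a1 was at -0.03.

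Adipokines gave both signs. Agt, which codes for angiotensinogen, had 766, 1145, 872, 674 and 2223 in HF pregnant mice, against 328, 427, 351, 333 and 124 in HF non pregnant mice (1.83, SE 0.50, adjusted p = 0.472), and the fifth mice were again the extremes, with 1.24 without them. Lep, which codes for leptin, had 576, 1151, 163, 1213 and 1185 in HF pregnant mice, against 1310.4, 3877, 1490.5, 761 and 852 in HF non pregnant mice (-1.0, SE 0.60, adjusted p = 1), with wide overlap. The value was -0.48 without HF pregnant mouse 3 and -0.62 without HF non pregnant mouse 2. Adipoq had a log2 fold change of 0.08 (adjusted p = 1), and -0.07 without the fifth mice. Of 7 acute phase proteins of fat, 5 were lower, with a median of -0.54 (-0.94 and 6 of 7 lower without the fifth mice). Orm1 was the only one called, beside 0.0377% of all genes, and the list was written with earlier results of these data known. Inhbb, a subunit of activin and inhibin, lay between 163 and 308 in HF pregnant mice and between 281 and 874 in HF non pregnant mice (-1.17, SE 0.30, adjusted p = 0.458).

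The feedback genes Socs2 and Cish were higher in HF pregnant mice without passing the test. Socs2, an inhibitor that growth hormone and prolactin induce through STAT5, had 2014, 1939, 1649, 1506 and 2318 in HF pregnant mice, against 1083, 648, 995, 978 and 695 in HF non pregnant mice (1.11, SE 0.27, adjusted p = 0.342). All 5 of its probe sets were higher, by 0.56 to 1.24. Cish had 327, 368, 371, 363 and 976 in HF pregnant mice, against 318, 164, 181, 243 and 159.8 in HF non pregnant mice (1.09, SE 0.30, adjusted p = 0.472), with mouse 5 far above the rest of the HF pregnant group and a log2 fold change of 0.80 without it. Without mouse 5 of both groups the log2 fold change of Cish was 0.71. Over 15 receptors and signalling genes of pregnancy hormones, 10 were higher and 5 lower, with a median of 0.14, which was 0.02 with 8 higher and 7 lower without the fifth mice. Esr1, the estrogen receptor alpha, had 802, 1323, 784, 901 and 1683 in HF pregnant mice, against 652, 832, 743, 1315 and 416 in HF non pregnant mice. The groups overlapped, and the log2 fold change of 0.50 (SE 0.34, adjusted p = 1) was 0.12 without the fifth mice. Of 13 genes of estrogen synthesis and action, 9 were higher with a median of 0.08, and Hsd17b11 (0.26, SE 0.08, adjusted p = 0.691) did not overlap between the groups, while Hsd17b12, another dehydrogenase of the family, was at 0.06 (SE 0.30, adjusted p = 1) and at -0.30 without the fifth mice.

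The IGF list followed Igfbp3 only in part. Of its 12 measured genes, 9 were higher and 3 lower, with a median of 0.21 (0.09 with 8 higher and 4 lower without the fifth mice), and Igfbp7, a binding protein of vessel walls, did not overlap, at 10689.8, 10942, 9483, 10554 and 10677 in HF pregnant mice, against 7454, 7607, 8741, 8221 and 6785 in HF non pregnant mice (0.44, SE 0.12, adjusted p = 0.509). Igf1 itself had 2982, 4616, 3415, 3542 and 6817 in HF pregnant mice, against 3389, 3452, 2705, 2784 and 1432 in HF non pregnant mice. Its log2 fold change was 0.63 (SE 0.29, adjusted p = 1), and 0.23 without the fifth mice.

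Mmp14, Tgm2 and Thbs2, genes of matrix turnover, were higher in HF pregnant mice but did not pass (adjusted p = 0.293 for Mmp14). Mmp14, the membrane-bound activator of other matrix proteases, had 1047, 1045, 1073, 999 and 1069 in HF pregnant mice, against 804, 774, 861, 608 and 664 in HF non pregnant mice, and its second probe set also did not overlap (215, 222, 213, 207 and 224 in HF pregnant mice, against 162, 155, 160.2, 119.6 and 132). Tgm2, a crosslinking transglutaminase, had 5307, 6300.3, 5631, 6457 and 7106 in HF pregnant mice, against 4867, 4502, 5027, 3359 and 3195 in HF non pregnant mice (0.57, SE 0.13, adjusted p = 0.293). Thbs2, the antiangiogenic thrombospondin 2, had 793, 1671, 832, 1051 and 1888 in HF pregnant mice, against 357, 631, 607, 369 and 259.6 in HF non pregnant mice (1.48, SE 0.36, adjusted p = 0.342, and 1.13 without the fifth mice). All 3 genes were separate between the groups, beside 0.698% of all genes on the higher side. Mmp14 and Tgm2 were named for their small p, so their separation is not independent of that choice. Thbs2 was also named under a rule that required groups without overlap, so its separation was a condition of that rule. Of 16 matrix proteases and inhibitors, 13 were higher with a median of 0.19 (0.07 without the fifth mice), and Adamts5, an aggrecanase, was the lowest at -1.04 (SE 0.39, adjusted p = 0.881). The 25 collagens and matrix genes had a median of -0.03 (-0.17 without the fifth mice), from Col15a1, a basement membrane collagen (-0.99, SE 0.27, adjusted p = 0.475), up to Thbs2. Col15a1 was also separate between the groups, on the lower side. The 22 genes of vessels and their growth factors had a median of 0.13 (-0.08 without the fifth mice), with Kdr, the main receptor of VEGF, at 0.39 (SE 0.12, adjusted p = 0.688).

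Among the other genes in which the HF groups did not overlap and HF pregnant mice were higher, some had log2 fold changes above 1 and adjusted p-values from 0.422 to 0.5. They were Ldb3, a Z-disc protein of muscle (1.66, SE 0.45), Dusp4, a phosphatase of MAP kinases (1.61, SE 0.45), Adgrg2, an adhesion receptor (1.39, SE 0.35), and Penk, which codes for proenkephalin (1.12, SE 0.31, and 0.67 without the fifth mice). Without the fifth mice Ldb3 was at 1.37, Dusp4 at 1.13 and Adgrg2 at 1.07. HF pregnant mouse 5 was the highest of its group for Dusp4 (1952, against 580.3 to 747 in the other HF pregnant mice) and Penk (1735, against 915 to 1088). Ldb3 was tight in HF pregnant mice, at 499.7, 508, 482, 445 and 494, against 149, 143, 201, 283 and 69.6 in HF non pregnant mice. Separate groups were also seen for Xbp1, a transcription factor of secretory cells (0.39), Sned1 (0.72), Nectin2 (0.38) and Nmb (0.43) on the higher side, and for Rflnb (-0.64), Anapc15 (-0.55), Trub2 (-1.03), Tlcd2 (-1.41) and Hephl1 (-1.33) on the lower side, with adjusted p-values from 0.293 to 1. All HF pregnant values of Hephl1 lay under 100, and its log2 fold change was -0.18 with intensities under 100 set to 100. Sema4c (0.43) and Tcn2, the carrier of cobalamin (0.77), were among the 15 smallest p-values but overlapped between the groups.

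All 14 cell division genes were lower in HF pregnant mice with all mice included (median -0.52), all 8 genes of MHC class II presentation were lower (-0.27), and so were the 3 B cell (-0.34) and 3 T cell markers (-0.44). Without the fifth mice these medians were 0.01, 0.29, 0.59 and 0.37. The summed intensity of the B cell markers ranged from 541 to 4826 in HF pregnant mice and from 1183 to 10696 in HF non pregnant mice, and that of the T cell markers from 288 to 1650.0 in HF pregnant mice and from 585 to 3363 in HF non pregnant mice.

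Mast cell proteases were higher in HF pregnant mice without passing the test. Cma1, the mast cell chymase, had 197, 174, 176, 311 and 288 in HF pregnant mice, against 97.9, 87.5, 129, 146 and 80.2 in HF non pregnant mice, with no overlap (1.08, SE 0.24, adjusted p = 0.293). Cpa3, the mast cell carboxypeptidase, had 238, 177, 229, 481 and 383, against 105, 126, 186, 212 and 131 in HF non pregnant mice (0.94, SE 0.30, adjusted p = 0.688), and Mcpt4 was at 0.85 (SE 0.25, adjusted p = 0.575), or 0.46 with intensities under 100, where all its HF non pregnant values lay, set to 100. Kit, the receptor that mast cells need and other cells share, was at 0.04 (SE 0.38, adjusted p = 1), and Tpsb2 did not reach 100 on any array. The 4 measured markers had a median of 0.89, and 0.73 without the fifth mice.

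Macrophage lists had small medians of either sign, and no member passed the test. Of 6 general macrophage markers 5 were higher with a median of 0.22 (0.18 and 5 of 6 higher without the fifth mice). Of 15 genes of resident macrophages 13 were higher with a median of 0.29, which was 0.09 with 8 of 15 higher without the fifth mice. Clec10a, a lectin of these cells, lay between 699 and 1331 in HF pregnant mice and between 401 and 722 in HF non pregnant mice (0.72, SE 0.19, adjusted p = 0.472, and 0.49 without the fifth mice). Of 12 genes of CD11c and lipid-associated macrophages 5 were higher and 7 lower, with a median of -0.08 (-0.12 and 4 higher without the fifth mice). They ranged from -1.02 to 0.55, and 1 did not overlap between the groups, on the lower side, beside 0.698% of all genes. Among the higher ones was Trem2 at 0.55 (SE 0.26), or 0.33 without the fifth mice and 0.30 with intensities under 100 set to 100. Itgax, which codes for CD11c, had 144, 149, 176, 154 and 51.3 in HF pregnant mice, against 219.8, 142, 144, 149.7 and 239 in HF non pregnant mice (-0.49, SE 0.39, adjusted p = 1). Its log2 fold change was -0.05 without the fifth mice. The 16 inflammatory mediators had a median of 0.01, with 9 higher (-0.11 and 7 higher without the fifth mice). Ccl2, the monocyte chemokine, had 80.0, 88.3, 106, 135 and 83.4 in HF pregnant mice, against 113, 166, 116, 76.8 and 169 in HF non pregnant mice. These values lay around the expression threshold and overlapped (-0.35, SE 0.25, adjusted p = 1, and -0.18 without the fifth mice). Tnf stayed under 100 on every array (highest 85.6), and Itgam, which codes for CD11b, passed 100 on 3 of the 20 arrays, so neither was tested.

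Marker lists of other cell types in the depot gave medians of 0.60 for smooth muscle (4 genes, all higher), 0.49 for mesothelium (4 genes, all higher, 0.28 without the fifth mice) and 0.11 for endothelium (4 genes, 3 higher, 0.03 without the fifth mice). The smooth muscle median rested on HF non pregnant mouse 1 and was 0.04, with 3 of 4 higher, without it. The summed smooth muscle intensity ranged from 16348 to 37826 in HF pregnant mice and from 4956, in mouse 1, to 35167 in HF non pregnant mice.

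On the control diet no probe set passed the test between pregnant and non pregnant mice (0% of 19802). Of the 15 genes of smallest p that were higher in HF pregnant mice, 11 were also higher in control pregnant than in control non pregnant mice, with medians of 0.72 on the HF diet and 0.18 on the control diet. Of the 15 that were lower, 11 were also lower on the control diet, with medians of -1.26 and -0.23. Over all genes the mean was higher in control pregnant mice for 49.5%. Of the 74 genes whose HF pregnant values lay all above, 49 were higher in control pregnant mice, and of the 74 whose values lay all below, 36 were lower. The comparisons on the 2 diets share no mouse but were fitted with 1 estimate of the spread.

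Socs2 had nearly the same value on both diets, with log2 fold changes of 1.11 (SE 0.27) on the HF diet and 1.0 (SE 0.27) on the control diet, a difference of 0.11 (SE 0.39, adjusted p = 0.962). Xbp1 was at 0.39 (SE 0.10) and 0.31 (SE 0.10). Igfbp3 was at 1.72 on the HF diet and 0.86 (SE 0.27) on the control diet. Other genes had values of opposite sign, such as Thbs2 (1.48 and -0.31, SE 0.36 each), Cma1 (1.08 and -0.43, SE 0.24 each) and Elovl6 (-2.24 and 0.57, SE 0.62 each), and Gpx3 (0.18), Orm1 (0.21) and Mtarc1 (-0.26) were near 0 on the control diet. Whether the log2 fold changes on the HF diet and on the control diet differed was tested for every probe set, and none passed (0%). The smallest adjusted p of that test was 0.201, for Orm1 (difference -3.21, SE 0.53), and Gpx3 (1.80, SE 0.39), Mtarc1 (-3.17, SE 0.68), Thbs2 (1.79, SE 0.51), Cma1 (1.5, SE 0.34) and Elovl6 (-2.81, SE 0.87) each had 0.933. The mast cell list had a median of 0.89 on the HF diet and -0.35 on the control diet, smooth muscle 0.60 (0.04 without HF non pregnant mouse 1) and -0.85, cholesterol synthesis -0.60 and -0.15 and fatty acid synthesis -0.39 and -0.03.

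**Figure D5:**
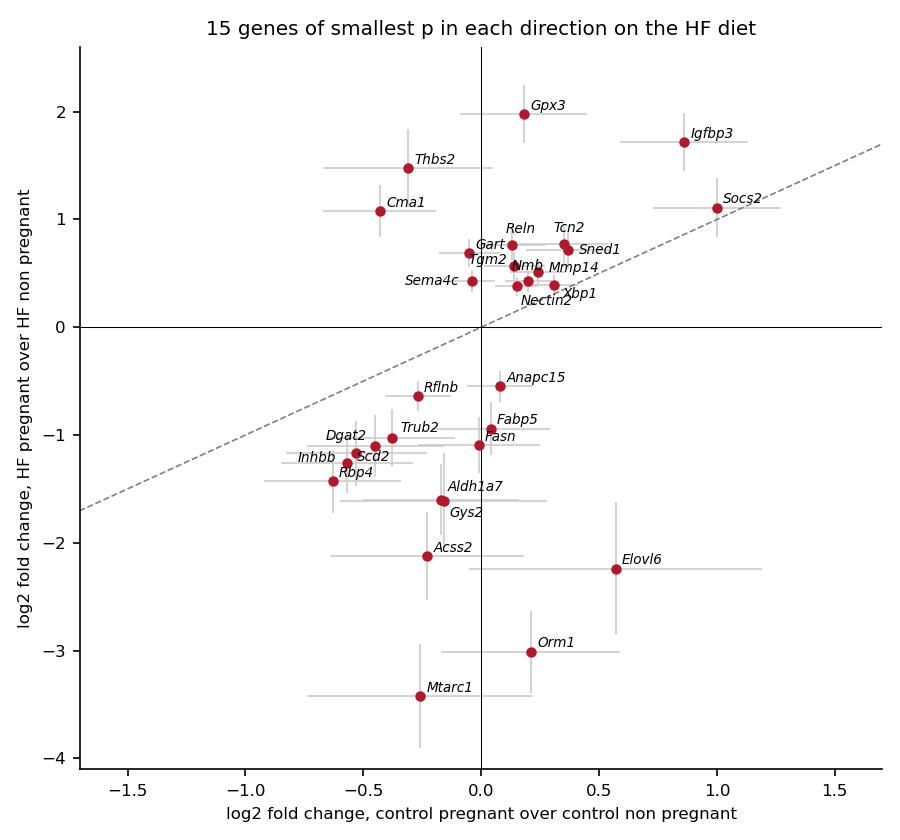
Log2 fold change of HF pregnant over HF non pregnant mice (vertical axis) and of control pregnant over control non pregnant mice (horizontal axis) for the 15 genes of smallest p in each direction on the HF diet, with lines of 1 SE and a dashed line of equal values. Socs2 lies close to the dashed line, at 1.11 and 1.0, while Gpx3, Orm1 and Mtarc1 lie near the vertical axis.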

How the data were processed

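Visceral fat RNA of 20 mice was measured on Affymetrix Mouse Genome 430 chips. The authors normalized the scans with RMA (affy, R 2.8.0, per the labels) and deposited intensity values of 45101 probe sets on a linear scale. This method gives the single probes of every array the same distribution before they are summarized into probe sets. A shift of all genes together therefore cannot be seen, although the probe set values differ slightly in their medians. The labels name Trizol for the extraction and the paper Qiagen columns, and no scan date or batch is given in the sources used here.

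The log2 of each intensity was taken. Probe sets above 100 on at least 5 of 20 arrays were kept, without regard to group and without the 64 control probe sets, and a model of 4 group means was fitted (limma 3.58.1, R 4.3.3). P-values were adjusted by Benjamini and Hochberg over 19802 probe sets, with a threshold of 0.05. Of these, 17322 carry 1 gene symbol, and a gene is its probe set of highest mean over all arrays. Replicates are separate mice, and their number limits the precision.

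The genes named were all called genes, the 15 of smallest p in each direction, the 10 largest changes in each direction among genes whose groups do not overlap, the genes the paper names for this tissue, and up to 4 members of smallest p per direction in each list, with defining cell markers. Further list members were named for their roles or lack of change, after their values were seen. The comparison, the 30 pathway lists and the 17 marker lists were chosen with earlier results of these data known. Lists are described by counts and medians only. Before use, the fit was checked on simulated data in which 200 probe sets had known changes. The alternatives were other filters, a floor at 100, trended and robust moderation, array weights, the HF arrays alone, centring, repeated quantile normalization, gene means, kept control probe sets, a replicate block, each array left out in turn, the 2 control arrays high in pancreatic genes left out, an unadjusted p with a 1.5-fold change and a rank product with a 1.5-fold change. The fit without the fifth mouse of both HF groups and the list medians without HF non pregnant mouse 1 were added after seeing the data.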

Additional observations from a re-analysis of the deposited data

Results flagged for a closer look

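In 15 of 166 sets of 5 HF values of a named gene, 1 mouse lay far from the others on the log2 scale. Its gap to its nearest neighbour, as a share of the range of the group, was above Dixon's limit for 5 values. The shares are of log2 values, while the intensities printed beside them are linear. For independent sets with a normal spread, chance gives about 1 in 20. The sets here share the same mice, and many genes were chosen on these values, so that rate is only a rough guide. HF pregnant mouse 5 accounted for 7 of them and HF non pregnant mouse 5 for 6, the same mice that lay at the edge of their groups in lymphoid markers.

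HF pregnant mouse 5 was the highest of its group for Cish (976, median of the group 368, share of the range 0.885), Tlcd2 (192, median 140.5, 0.849), Dusp4 (1952, median 704, 0.792), Reln (657, median 493, 0.779), Insig1 (1828, median 1028, 0.737) and Penk (1735, median 1022, 0.729), and the lowest for Itgax (51.3, median 149, 0.834). HF non pregnant mouse 5 was the lowest of its group for Agt (124, median 333, 0.788), Irs1 (758, median 1745, 0.764), Scd1 (24133, median 28287, 0.738), Apoc1 (637, median 1463, 0.735), Igf1 (1432, median 2784, 0.723) and Orm1 (995, median 2499, 0.714). The other sets were Igfbp7, where HF pregnant mouse 3 was lowest (9483, median 10677, 0.747), and Gart, where HF non pregnant mouse 3 was lowest (294, median 318, 0.839) in a group whose values spanned 294 to 321.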

How the results depend on the processing

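The number of probe sets called higher and lower was 3 and 2 without a filter, with a filter on the mean, with trended and robust moderation, after centring, after repeated quantile normalization and with control probe sets kept. It was 4 and 1 with intensities under 100 set to 100, 2 and 1 over gene means, 880 and 1799 with array weights, which gave HF non pregnant mouse 3 a weight of 11.3 and the other arrays 0.233 to 4.45, and 0 and 0 with the HF arrays alone (1075 at an unadjusted p under 0.05, smallest adjusted p 0.0754). It was 129 and 122 at an unadjusted p with a 1.5-fold change and 225 and 211 by the rank product with a 1.5-fold change. Leaving out 1 array gave 1 to 5 higher and 2 to 7 lower: 1 higher without HF non pregnant mouse 3, 5 higher without control non pregnant mouse 4, 7 lower without HF non pregnant mouse 5 and 5 lower without control non pregnant mouse 1. Without mouse 5 of both HF groups it was 1 and 2. The difference between the diets had 2 calls with array weights and 0 to 1 with 1 array left out, the 1 being without HF non pregnant mouse 5.

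With the replicate block the counts were 2 and 1, with the calls of Mtarc1 (adjusted p = 0.0662) and the first Igfbp3 probe set (adjusted p = 0.107) lost, and 0 for the difference between the diets. Same-numbered deviations correlated at a median of -0.161 over 30 pairs of arrays (-0.749 to 0.674) and of -0.382 over the 5 pairs of the HF groups (-0.748 to -0.0156). Whether mice of the same number shared a batch cannot be told from these values, since no batch is given in the sources.

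Gpx3, Orm1, Mtarc1 and Igfbp3 kept direction and call in 31, 32, 29 and 24 of 33 alternatives. Alternatives that left out only control arrays could not change a log2 fold change between the HF groups, only its p-value. The direction was thus fixed in advance in those alternatives. Over 83 named genes and 2739 values, 14 changed sign, all of genes with adjusted p = 1. Hsd17b12 was -0.09 with array weights, -0.09 without HF pregnant mouse 5, -0.15 without HF non pregnant mouse 5 and -0.30 without both, with -0.15 to 0.21 over single mice left out. Adipoq was -0.02 with array weights, -0.03 without HF non pregnant mouse 5 and -0.07 without both (-0.03 to 0.15 over single mice). Itgax was 0.02 with array weights and Mlxipl -0.11 without mouse 5 of both groups (up to 0.80 with 1 mouse left out). Kit was -0.28 with array weights, -0.12 without HF pregnant mouse 1, -0.06 without HF pregnant mouse 4, -0.12 without HF non pregnant mouse 1 and -0.01 without HF non pregnant mouse 2 (-0.12 to 0.23 over single mice). The cause of these changes was not tested.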

Other observations

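Alas2, the first enzyme of heme synthesis in red cell precursors and the only measured erythroid marker, had 311, 680.2, 487, 146 and 1803 in HF pregnant mice, against 89.6, 184, 91.4, 192 and 55.8 in HF non pregnant mice (log2 fold change 2.14, SE 0.76, adjusted p = 0.815, and 1.42 without mouse 5 of both groups). HF pregnant mouse 4 overlapped the HF non pregnant group. The highest Alas2 value of all arrays was 2172, in control non pregnant mouse 3, and the log2 fold change on the control diet was -0.06 (SE 0.76). Apoc1, an apolipoprotein that macrophages and fat express, had 2403, 2588, 3699, 1445 and 5885 in HF pregnant mice, against 1589.7, 1463, 1423, 1903 and 637 in HF non pregnant mice (1.12, SE 0.32, adjusted p = 0.509, and 0.60 without mouse 5 of both groups), and Apoe, its neighbour in the genome, was at 0.47 (SE 0.21, adjusted p = 1). Gsta3, a glutathione transferase, lay between 215 and 421 in HF pregnant mice and between 219.8 and 1022 in HF non pregnant mice (-0.91, SE 0.32, adjusted p = 0.815, and -1.37 without mouse 5 of both groups), and between 605 and 1189.5 in the control groups.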
